A study of Rattus norvegicus with 12 samples.

Results

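The circadian clock genes were examined in tissue labelled as left atrium across 4 groups of rats, with 3 RNA-seq libraries in each group. The members were Arntl, Clock, Npas2, Per1, Per2, Per3, Nr1d1, Nr1d2, Dbp and Tef, taken by gene symbol from the deposited expression table, and all 10 were found among its 21239 genes with counts. Male Wistar-Kyoto rats (WKY group) and spontaneously hypertensive rats (SHRs, an inbred strain that develops high blood pressure with age; SHR group) were given saline at 7.5 ml/kg/day. In the ARB group, SHRs took valsartan, an angiotensin receptor blocker, at 30 mg/kg/day. In the ARNI group, they took sacubitril/valsartan, in which valsartan is combined with the neprilysin inhibitor sacubitril, at 60 mg/kg/day. All rats had been bought at an age of 14 weeks, were dosed over 4 weeks and lived under a 12 h light and 12 h dark cycle, with lights on at 7 in the morning. The hour at which each atrium was taken is not given in the sources used here, so the hour of collection and the group cannot be told apart. For the 6 saline libraries, the strain words and the short library name within a title point to opposite strains, and the short name was followed. If the strain words held instead, the signs of SHR versus WKY would turn around, and the comparisons of the treated groups with the WKY group would be those with saline SHRs. The strain field names Wistar-Kyoto in all 12 libraries, and a phenotype field names the hypertensive rat for the 9 libraries of the WKY, ARB and ARNI groups, so that for the saline libraries it sides with the strain words. The titles of the treated libraries name SHRs, and these rats were taken as such.

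The circadian clock is a transcriptional loop that runs in nearly every cell, heart muscle included, and takes about a day to close. The proteins of Arntl (also called Bmal1) and Clock, or its relative Npas2, pair and switch on genes that carry E-box sequences, among them the Per genes, Nr1d1, Nr1d2, Dbp and Tef. The PER proteins then block the activators, while the nuclear receptors NR1D1 and NR1D2 (REV-ERB alpha and beta) silence Arntl, Clock and Npas2, so that transcripts of the activators and of their targets peak at opposite times of day. Dbp and Tef encode transcription factors that bind D-boxes and pass the rhythm on to other genes.

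The libraries did not match their labelled tissue equally well. Transcripts are given in CPM, counts scaled to the total count of the library, and totals ranged from 11252361 to 15823525 counts. Of the markers of atrial and ventricular muscle, the atrial light chain Myl7 reached only 15.9, 3.30 and 0.889 CPM in replicates 1, 2 and 3 of WKY and 9.67 CPM in ARNI replicate 2, against 4478 to 11547 CPM in the other 8 libraries. The ventricular light chain Myl2 was at 3489 to 3776 CPM in the WKY libraries and at 2298 CPM in SHR replicate 2, 2573 CPM in ARB replicate 3 and 4161 CPM in ARNI replicate 2, and it did not exceed 24.2 CPM in the other 6. The summed CPM of the 11 atrial markers was 158 to 369 in WKY, 27900 to 77500 in SHR, 37000 to 74700 in ARB and 153 to 67200 in ARNI. For the 6 ventricular markers the sums were 43300 to 43600, 376 to 9840, 437 to 10600 and 656 to 18600 CPM, in the same order of groups. The comparisons of SHR and ARB with WKY therefore also set libraries with atrial markers against libraries nearly without them, whichever libraries were used, and the part of this in the clock gene differences was not tested, other than by a fit with a chamber score. In such bulk tissue, fewer cells of a type and less RNA per cell cannot be told apart.

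The clock genes were well covered at this depth. Their counts per library lay between 33 and 4216, and the upper limit for a gene without reads, 3 counts, was worth 0.190 to 0.267 CPM (counting error only). Because CPM is not corrected for transcript length, levels are compared between libraries and not between genes.

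Promoter windows from RefSeq (build GRCr8, 250 bases before to 50 bases after each start) were available for all 10 clock genes, with 12 windows in all. They were searched on both strands for the E-box CACGTG, the D-box TTANGTAA, the cyclic AMP element TGACGTCA and the core of the ROR element, at which NR1D1, NR1D2 and the activating ROR receptors compete, written as TAGGTCA or TGGGTCA. No listed motif overlapped another in these windows. For the 4 windows that held a match, shown because the loop is known to act through sites of these kinds, the 250 bases before the start are printed 5′ to 3′ on the gene's strand, with the match in capitals. The Arntl window (listed under Bmal1, chr1:176766078-176766327, plus strand) holds the ROR element TAGGTCA at bases 235 to 241. The Per2 window (chr9:99496994-99497243, minus strand) holds the D-box TTATGTAA at bases 59 to 66. An E-box stands at bases 53 to 58 of the Tef window (chr7:115206577-115206826, plus strand) and at bases 60 to 65 of the second Nr1d1 window (chr10:84229455-84229704, minus strand).
Arntl: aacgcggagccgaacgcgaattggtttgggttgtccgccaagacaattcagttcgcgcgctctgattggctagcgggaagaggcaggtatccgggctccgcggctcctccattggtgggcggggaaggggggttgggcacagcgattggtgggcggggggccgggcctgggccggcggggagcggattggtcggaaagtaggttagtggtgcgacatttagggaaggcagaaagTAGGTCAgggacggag
Per2: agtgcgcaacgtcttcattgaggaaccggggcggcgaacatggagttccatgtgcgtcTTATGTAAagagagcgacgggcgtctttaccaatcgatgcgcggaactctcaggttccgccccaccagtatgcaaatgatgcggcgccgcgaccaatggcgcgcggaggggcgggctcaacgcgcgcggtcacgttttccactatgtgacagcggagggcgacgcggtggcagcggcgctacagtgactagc
Tef: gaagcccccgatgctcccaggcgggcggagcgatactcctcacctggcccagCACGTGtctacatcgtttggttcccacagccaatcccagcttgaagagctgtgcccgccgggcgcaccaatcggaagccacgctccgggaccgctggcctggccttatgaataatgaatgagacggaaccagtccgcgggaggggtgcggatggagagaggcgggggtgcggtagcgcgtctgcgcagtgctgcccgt
Nr1d1: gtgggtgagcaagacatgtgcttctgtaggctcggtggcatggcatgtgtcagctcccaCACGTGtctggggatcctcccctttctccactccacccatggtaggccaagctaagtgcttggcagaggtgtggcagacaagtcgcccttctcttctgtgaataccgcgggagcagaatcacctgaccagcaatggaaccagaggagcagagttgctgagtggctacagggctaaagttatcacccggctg
Over all 33469 windows, 6.42% held the E-box, 2.24% the D-box, 2.63% TAGGTCA, 4.09% TGGGTCA and 1.83% the cyclic AMP element. TGGGTCA and the cyclic AMP element were in none of the clock gene windows, which says only that these letters are not there, and a match is a description of the sequence and not evidence of binding.

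Arntl, the activator whose product the loop cannot do without, varied more between libraries than any other of the 10. In replicates 1, 2 and 3, in this order throughout, Arntl was at 27.7, 36.8 and 34.1 CPM in WKY, 4.08, 8.75 and 28.2 CPM in SHR, 4.10, 3.16 and 2.62 CPM in ARB and 62.7, 12.3 and 17.2 CPM in ARNI. The 3 ARB libraries and SHR replicate 1 were low, the WKY libraries were high and close together, and ARNI replicate 1 was the highest of all, 24.0-fold above ARB replicate 3. Group means were 32.9 ± 4.67 CPM (SD, n = 3) in WKY, 30.7 ± 27.8 in ARNI, 13.7 ± 12.8 in SHR and 3.29 ± 0.750 in ARB. In that order, WKY and ARNI overlapped, ARNI and SHR overlapped, and SHR and ARB overlapped at about 4 CPM, and the ARB libraries stood apart from the WKY and the ARNI libraries.

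Clock, the usual partner of Arntl, moved the same way over a narrower range. Its levels were 63.3, 73.9 and 70.7 CPM in WKY, 53.1, 49.7 and 76.3 CPM in SHR, 49.4, 49.8 and 34.1 CPM in ARB and 103, 53.8 and 62.4 CPM in ARNI. Again ARB replicate 3 was the lowest and ARNI replicate 1 the highest library, 3.03-fold apart. Npas2, which can stand in for Clock, was at 16.1, 16.2 and 16.6 CPM in WKY, 15.2, 13.6 and 48.4 CPM in SHR, 12.0, 11.6 and 6.74 CPM in ARB and 26.7, 9.98 and 18.3 CPM in ARNI. SHR replicate 3 was the highest library for Npas2 by a wide margin, while the WKY libraries differed by less than 1 CPM.

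The Per genes, which encode the repressors of the loop, did not move as 1 group. Per3 was at 24.6, 26.3 and 19.0 CPM in WKY, 73.2, 65.6 and 50.0 CPM in SHR, 68.0, 88.2 and 36.6 CPM in ARB and 23.3, 39.2 and 51.0 CPM in ARNI. Every SHR and ARB library was above every WKY library, and ARNI overlapped all other groups. Per2 was at 55.1, 56.3 and 49.2 CPM in WKY, 71.4, 49.8 and 38.9 CPM in SHR, 77.3, 113 and 62.8 CPM in ARB and 33.6, 47.7 and 83.6 CPM in ARNI, with the ARB libraries all above the WKY libraries and every other pair of groups overlapping. Per1, the Per gene that also answers acute signals such as cyclic AMP and glucocorticoids, was at 143, 66.4 and 81.0 CPM in WKY, 79.0, 140 and 208 CPM in SHR, 63.8, 174 and 133 CPM in ARB and 99.2, 136 and 95.8 CPM in ARNI. All groups overlapped for Per1, and its spread lay within groups as much as between them.

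Nr1d1 and Nr1d2, the nuclear receptors that silence the activators, were lowest in the WKY libraries and in ARNI replicate 1. Nr1d2 was at 82.4, 75.7 and 74.1 CPM in WKY, 152, 132 and 129 CPM in SHR, 127, 162 and 124 CPM in ARB and 55.5, 117 and 122 CPM in ARNI. For Nr1d1 the levels were 108, 92.5 and 117 CPM in WKY, 215, 137 and 254 CPM in SHR, 191, 185 and 184 CPM in ARB and 64.1, 189 and 240 CPM in ARNI. The SHR and ARB libraries lay above the WKY libraries for both receptors, and the SHR and ARB groups overlapped each other.

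Dbp, an output gene driven directly by Arntl and Clock, mirrored Arntl. It was at 54.3, 41.5 and 44.8 CPM in WKY, 259, 159 and 119 CPM in SHR, 202, 235 and 246 CPM in ARB and 17.1, 113 and 123 CPM in ARNI, so that the highest library, SHR replicate 1, stood 15.1-fold above the lowest, ARNI replicate 1. Group means ran from 46.9 ± 6.66 CPM (SD, n = 3) in WKY to 84.3 ± 58.4 in ARNI, 179 ± 72.3 in SHR and 227 ± 22.8 in ARB, and each group overlapped its neighbour in this order. Tef, a relative of Dbp, was at 128, 126 and 141 CPM in WKY, 228, 204 and 113 CPM in SHR, 228, 290 and 217 CPM in ARB and 95.8, 149 and 142 CPM in ARNI. The ARB libraries were above all WKY and all ARNI libraries for Tef, and SHR replicate 3 lay below the WKY group.

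**Figure D1:**
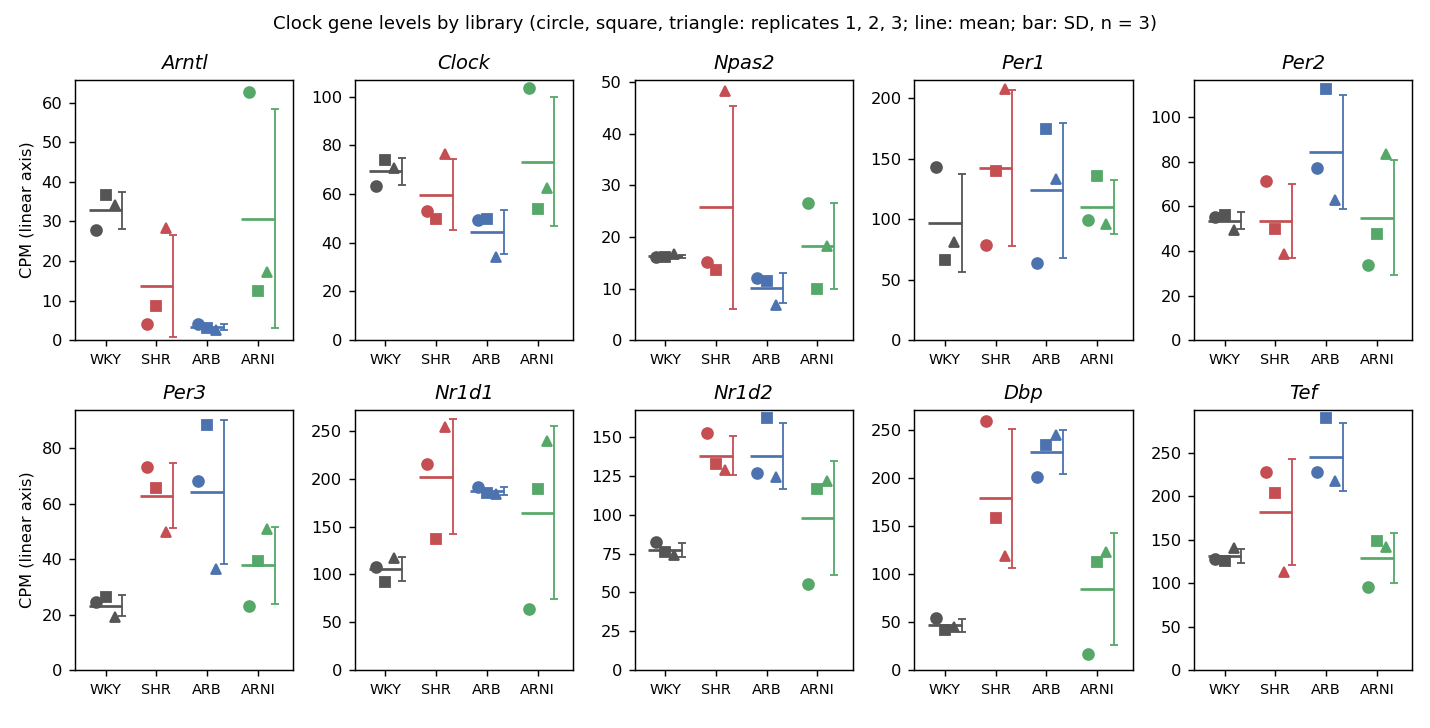
Level of each clock gene in CPM (linear axis from 0) in the 12 libraries, by group, with circles, squares and triangles for replicates 1, 2 and 3, the line at the group mean and the bar at 1 SD (n = 3). Arntl runs from 2.62 CPM in ARB replicate 3 to 62.7 CPM in ARNI replicate 1, while the WKY libraries sit close together for all genes but Per1.

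Seen by library, the activators and the other clock genes lay, on average, on opposite sides of their means in most libraries. Log2 CPM (TMM-scaled) was centred on each gene's mean over the 12 libraries and averaged over Arntl, Clock and Npas2 and over the other 7 genes. The averages had opposite signs in all libraries but SHR replicate 3 (0.90 for the activators, 0.03 for the others) and ARNI replicate 3 (0.18 and 0.14). The difference of these averages, activators minus repressors and outputs, was 0.80, 1.26 and 1.19 in the WKY libraries, -1.09, -0.59 and 0.87 in the SHR libraries, -1.08, -1.68 and -1.74 in the ARB libraries and 2.34, -0.32 and 0.04 in the ARNI libraries. The WKY libraries were thus all on the activator side and the ARB libraries all on the repressor side, while the SHR and ARNI groups each held libraries of both signs. ARNI replicate 1 had the highest level of Arntl and Clock and the lowest of 5 genes (Per2, Nr1d1, Nr1d2, Dbp and Tef) among all libraries. ARB replicate 3 was lowest for all 3 activators, and ARB replicate 2 was highest for 4 of the other genes (Per2, Per3, Nr1d2 and Tef). SHR replicate 3 was highest for Npas2, Per1 and Nr1d1, genes of both sides, and Per1 did not follow this order of libraries.

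**Figure D2:**
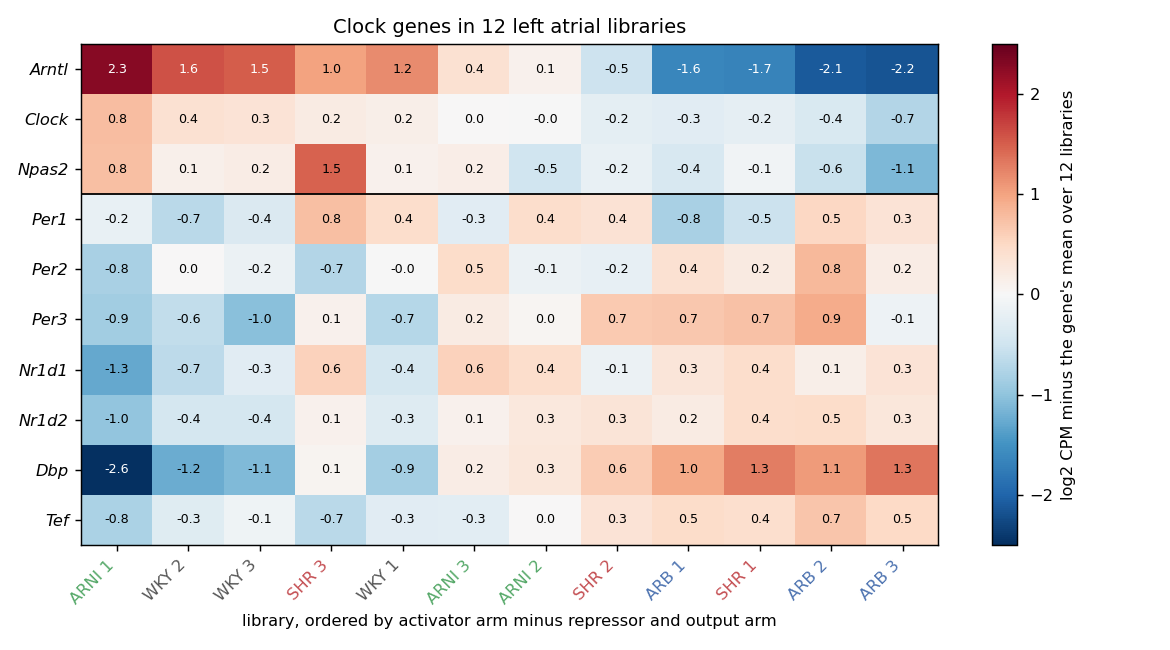
Log2 CPM of the 10 clock genes (rows) in the 12 libraries (columns), minus the mean of the gene over all libraries, with red above and blue below that mean and the columns ordered by activators minus repressors and outputs. Activators (above the line) go from red to blue and Dbp from blue to red between ARNI replicate 1, at 2.34, and ARB replicate 3, at -1.74. The columns are ordered by these same genes, so this course follows in part from the ordering.

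Over the 12 libraries, log2 CPM of Arntl and of Dbp had a Pearson r of -0.927 and a Spearman rho of -0.993. Of the 14451 other genes kept, Dbp and Tef (r = -0.921) were the 2 least like Arntl. Without the 2 libraries farthest from the median of Arntl, ARB replicates 2 and 3, r was -0.926 over the remaining 10, and with the group means removed it was -0.876. These values are descriptions with no test, and the points share group, chamber profile and depth.

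**Figure D3:**
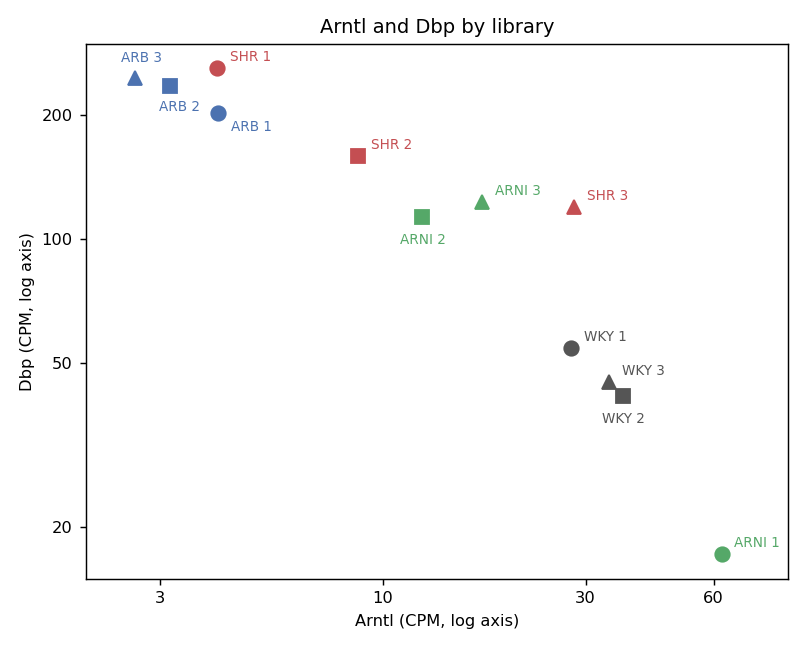
Dbp against Arntl in CPM, both on log axes, 1 point for each of the 12 libraries, coloured by group and shaped by replicate. The points fall from the ARB libraries and SHR replicate 1 (Arntl 2.62 to 4.10 CPM, Dbp 202 to 259 CPM) to ARNI replicate 1 (62.7 and 17.1 CPM). Of the libraries with Myl2 above 1000 CPM, ARNI replicate 2 and SHR replicate 2 lie in the middle. ARB replicate 3 has the lowest Arntl, and the WKY libraries lie together (Arntl 27.7 to 36.8 CPM, Dbp 41.5 to 54.3 CPM).

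The SHR and WKY groups, compared to ask what hypertension goes with in the atrium, differed in 2 clock genes, the output gene Dbp and the repressor gene Per3. Dbp rose by 1.81 on the log2 scale (SE 0.305, adjusted p = 0.0138) and Per3 by 1.31 (SE 0.199, adjusted p = 0.0107). These p-values came from the quasi-likelihood test of edgeR, adjusted after Benjamini and Hochberg over 13794 genes. A gene was called when its log2 fold change was 1 or more in either direction and its adjusted p did not exceed 0.05, the thresholds of the study. With 2 of 10 clock genes called, against 8.89% of all genes tested, both lay in the higher direction, which held 5.54% of all genes, and none in the lower, which held 3.35%. By adjusted p alone, Nr1d2 (log2 fold change 0.70, adjusted p = 0.0124) and Nr1d1 (0.78, adjusted p = 0.0429) also passed, giving 4 of 10 against 20.6% of all genes, and these 4 were the clock genes whose groups did not overlap, as was so for 49.6% of all genes. At an unadjusted p under 0.05 were 6 of 10, against 39.4% of all genes. The median log2 fold change was 0.45 over the 10 clock genes and 0.01 over all genes tested.

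None of the activators passed by adjusted p between SHR and WKY in edgeR's test. Arntl had a log2 fold change of -1.43 (SE 0.599, adjusted p = 0.127), Clock -0.36 (adjusted p = 0.122) and Npas2 0.49 (adjusted p = 0.447). DESeq2 called Arntl, with a log2 fold change of -1.46 (adjusted p = 0.0360), and 3 clock genes in all, beside 1601 of 18705 genes. Without SHR replicate 3, the SHR library with the highest Arntl, the fold change of Arntl was -2.45 and passed (adjusted p = 0.0137). Without WKY replicate 1 or WKY replicate 3, 0 of the 10 clock genes were called, beside 393 of 14138 and 348 of 14145 genes. Without WKY replicate 2 only Per3 was called, beside 353 of 14149 genes. In 1 edgeR fit of all 12 libraries, 1 clock gene was called, beside 579 of 14452 genes, and Dbp missed (adjusted p = 0.0755). With a chamber score (atrial minus ventricular markers) added to that fit as a covariate, 0 were called, beside 95 of 14452 genes. The log2 fold changes were then 2.40 for Dbp (adjusted p = 0.197) and 1.25 for Per3 (adjusted p = 0.234). The scores of the WKY libraries, -2.15 to -2.04, did not overlap those of the SHR libraries, so that this fit extrapolates. It also holds the ARB and ARNI libraries, with ARNI replicate 2 at a score of -1.881.

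The comparison with the most clock genes called was that of the ARB and WKY groups, made to set treated SHRs against normotensive rats. Arntl fell by 3.40 on the log2 scale (SE 0.202, adjusted p = 0.000433), Dbp rose by 2.19 (SE 0.152, adjusted p = 0.000702) and Per3 rose by 1.36 (SE 0.275, adjusted p = 0.0129) by edgeR's test. These 3 called genes of 10 stood beside 11.1% of the 13786 genes tested, with 6.19% higher and 4.87% lower. By adjusted p alone 8 of 10 passed, against 28.5% of all genes, and they split by role. All 3 activators fell, with log2 fold changes of -0.74 for Clock (adjusted p = 0.0112) and -0.79 for Npas2 (adjusted p = 0.0271), and 5 of the other 7 genes rose, namely Per3, Dbp, Nr1d1 (0.73, adjusted p = 0.00850), Nr1d2 (0.73, adjusted p = 0.00447) and Tef (0.80, adjusted p = 0.00495). Per2, at 0.55, missed the threshold (adjusted p = 0.0503), and Per1, at 0.25, had an adjusted p of 0.659.

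In 9 of 10 clock genes the ARB and WKY libraries did not overlap, Per1 being the exception, against 48.3% of all genes tested, and 9 of 10 had an unadjusted p under 0.05, against 42.4%. The median log2 fold change was 0.64 over the clock genes and 0.02 over all genes. Arntl and Dbp stayed called without any 1 of the 6 libraries, whereas Per3 was lost without WKY replicate 1 (adjusted p = 0.0540) or WKY replicate 3 (adjusted p = 0.0629). In 1 edgeR fit of all 12 libraries the count stayed at 3, beside 989 of 14452 genes. With the chamber score added to that fit none of the 3 passed (Arntl -4.67, adjusted p = 0.0517, Dbp 2.78, adjusted p = 0.0755, and Per3 1.28, adjusted p = 0.146). There 195 of 14452 genes were called, and the fit again extrapolates.

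Between the ARNI and WKY groups 0 of 10 clock genes were called, 0 had an unadjusted p under 0.05 and in 0 did the groups stand apart, against 0.249%, 19.1% and 25.7% of the 13656 genes tested. By adjusted p alone the count was also 0, against 0.271% of all genes, and DESeq2 called 0 as well, beside 502 of 18708 genes. Dbp had a log2 fold change of 0.81 (SE 0.666) and Per3 of 0.65 (SE 0.295). For Arntl the log2 fold change was -0.17 with a standard error of 0.581, against 0.202 between ARB and WKY. ARNI replicate 2, the treated library with Myl7 near 0, lay between the other ARNI libraries for Per2, Per3, Nr1d1, Nr1d2 and Dbp. It was the lowest of its group for Arntl, Clock and Npas2 and the highest for Per1 and Tef. Its Dbp, 113 CPM, was near the 123 CPM of replicate 3, and ARNI replicate 1 was the one far from both. Leaving out any 1 of the 6 libraries left the count of called clock genes at 0. Over all genes, 0 were called without any 1 WKY library, 22 of 13858 without ARNI replicate 1 and 4 of 13775 without ARNI replicate 3. Without ARNI replicate 2, 1584 of 14032 genes were called. The comparisons of SHR, ARB and ARNI with WKY share the 3 WKY libraries.

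The treatments were compared with saline in SHRs, and with each other, to ask what each drug goes with in the hypertensive atrium. Between ARB and SHR 0 of 10 clock genes were called, as 0% of the 13979 genes tested were. At an unadjusted p under 0.05 were Arntl (log2 fold change -1.99, SE 0.658) and Npas2 (-1.29, SE 0.489), each with an adjusted p of 0.9999 in edgeR's test, so 2 of 10 beside 1.61% of all genes. Npas2 was the only clock gene whose ARB libraries all lay below the SHR libraries, and 5.39% of all genes did not overlap. Of the genes that rose between ARB and WKY, the log2 fold changes between ARB and SHR were 0.03 (SE 0.303) for Per3, -0.07 (SE 0.208) for Nr1d1, 0.02 (SE 0.145) for Nr1d2, 0.37 (SE 0.305) for Dbp and 0.44 (SE 0.294) for Tef.

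Between ARNI and SHR 0 of 10 were called, as 0% of the 13955 genes tested were, and 0 had an unadjusted p under 0.05, against 1.63% of all genes. The ARNI libraries lay below the SHR libraries for Nr1d2 alone, while 6.56% of all genes did not overlap. Standard errors were wide, at 0.858 for Arntl (log2 fold change 1.24) and 0.725 for Dbp (-0.99), so that a 2-fold difference, 1 on the log2 scale, was of the size of the error in both genes.

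ARNI and ARB, the combination at 60 and valsartan alone at 30 mg/kg/day, differed most in Arntl, with the next largest difference, -1.36 (SE 0.673), in Dbp. Arntl had a log2 fold change of 3.25 (SE 0.654), Clock of 0.77 (SE 0.257) and Npas2 of 0.90 (SE 0.355), all higher in ARNI, and Tef of -0.85 (SE 0.234), lower in ARNI. These 4 genes at an unadjusted p under 0.05 stood beside 3.86% of the 13948 genes tested, yet each had an adjusted p of 0.993 in edgeR's test, and 0 of 10, like 0% of all genes, were called. DESeq2 called 1, Arntl, with a log2 fold change of 3.26 (adjusted p = 0.000408), beside 18 of 18573 genes. The groups did not overlap in 5 clock genes, with Arntl and Clock above and Nr1d2, Dbp and Tef below in ARNI, against 10.5% of all genes. Leaving out SHR replicate 2, ARB replicate 3 and ARNI replicate 2, the libraries with Myl2 above 1000 CPM, left 0 clock genes called in all 3 comparisons among the SHR, ARB and ARNI groups, with 2 libraries against 2. Of all genes, 0 of 14083 (ARB versus SHR), 0 of 14136 (ARNI versus SHR) and 0 of 14125 (ARNI versus ARB) were called there too.

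**Figure D4:**
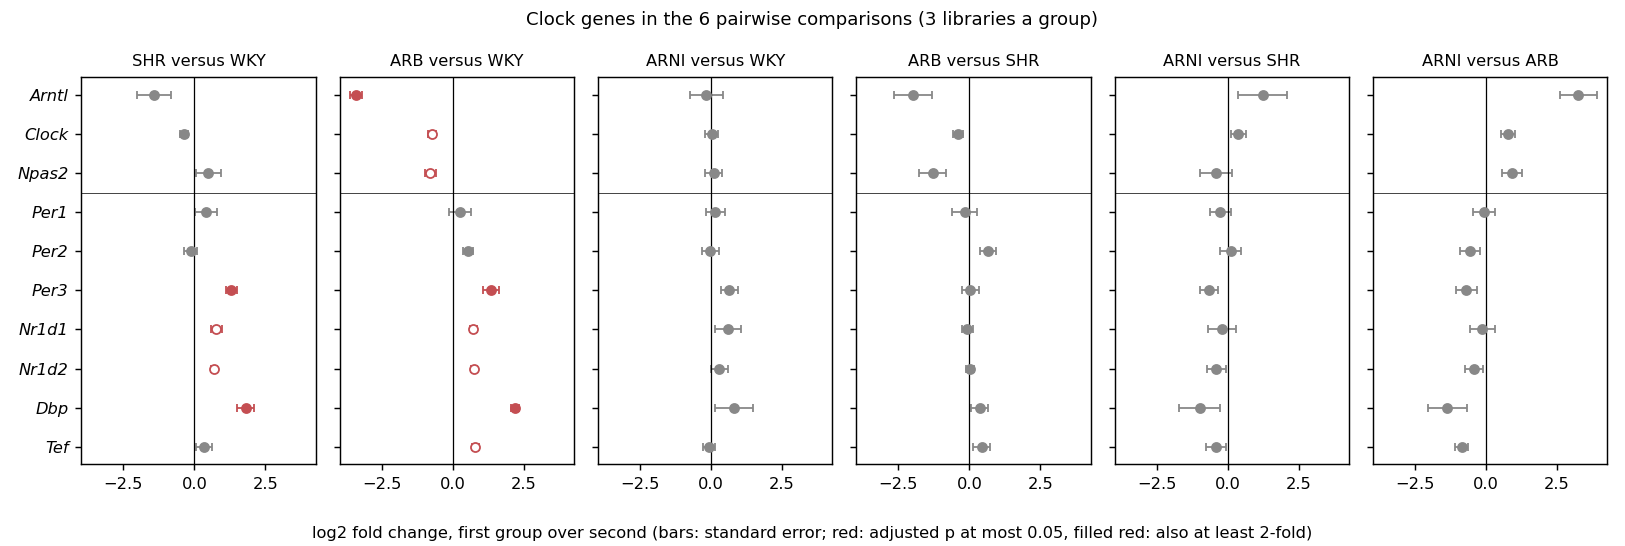
Log2 fold change of each clock gene in the 6 pairwise comparisons, first group over second, with bars for the standard error (3 libraries a group). Red marks an adjusted p of at most 0.05 and filled red also an at least 2-fold change, which are Per3 and Dbp in SHR versus WKY and Arntl, Per3 and Dbp in ARB versus WKY, and no point is red in the other 4 comparisons.

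A single test for any difference among the 4 groups, over all 12 libraries, called 0 of the 10 clock genes and 3.56% of the 14452 genes tested. Arntl came closest (unadjusted p = 0.00411, adjusted p = 0.0675), before Per3 (adjusted p = 0.0803) and Dbp (adjusted p = 0.114). At an unadjusted p under 0.05 were 6 of 10, against 25.3% of all genes. DESeq2's likelihood ratio test called 4 of the 10, beside 2536 of 19203 genes. Without ARNI replicate 1, edgeR's test called 3 of the 10, beside 737 of 14617 genes.

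Within groups, clock genes were more uneven than most genes. The SD of log2 CPM about the group means was 0.914 for Arntl and 0.885 for Dbp, which placed them at the 91.0th and 90.4th percentile of the 14452 genes kept. Per1 (0.601), Npas2 (0.593) and Nr1d1 (0.563) followed, then Per3 (0.452), Per2 (0.433), Tef (0.379), Nr1d2 (0.355) and Clock, the least uneven at 0.288 and the 51.5th percentile. All 10 were above the median of all genes. The groups differed in this. The median SD over the 10 genes was 0.63 in ARNI and 0.55 in SHR, against 0.32 and 0.24 over all genes, but 0.15 in WKY and 0.26 in ARB, near the 0.13 and 0.26 of all genes. In WKY, Npas2 had an SD of 0.0413 and Per2 of 0.0868, and Per1, at 0.571, was the exception. In ARNI, Dbp reached 1.64, Arntl 1.19 and Nr1d1 1.04.

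**Figure D5:**
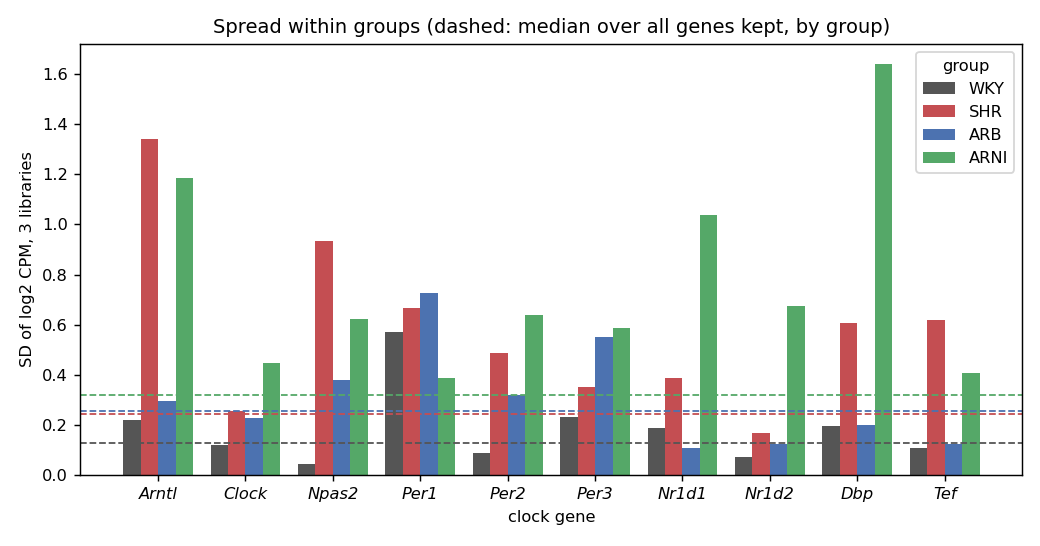
SD of log2 CPM over the 3 libraries of each group for every clock gene (bars from 0), with dashed lines at the median SD of all 14452 genes kept, by group. The tallest bars belong to ARNI (Dbp 1.64) and SHR (Arntl 1.34). The WKY and ARB bars lie on both sides of their dashed lines, with Per1 the tallest in both groups (0.571 and 0.725).

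Per1 and Npas2 were highest in SHR replicate 3, and that library stood apart in another way. The summed level of 17 immediate early genes, which rise within minutes of a stimulus or of tissue handling, was 6900 CPM there, 2560 CPM in ARNI replicate 3 and 1640 CPM in ARNI replicate 2, and 592 to 943 CPM in the other 9 libraries. Per1 was at 208, 95.8 and 136 CPM in those 3 libraries, the highest value of all 12 in the first and the highest and lowest of the ARNI group in the third and the second, and the part of the immediate early genes in its level was not tested. The median log2 fold change of the 17 genes was 1.80 between SHR and WKY, with 16 higher, and 1.48 between ARNI and WKY, with all 17 higher, beside 0.01 and 0.02 over all genes. The sums of SHR replicates 1 and 2, 840 and 819 CPM, lay within the 623 to 884 CPM of WKY. Of the 17 genes, Nr4a3, an orphan nuclear receptor, was called between SHR and WKY (log2 fold change 2.21, adjusted p = 0.0301). This is 1 of 17, beside 8.89% of all genes, and 0 were called in the other 5 comparisons, where 0% to 11.1% of all genes were. Per1 was close to no other of the 10 over the 12 libraries, with r between -0.215 (Per2) and 0.266 (Nr1d2). The genes most like it were Tob2 (r = 0.820), LOC108348326, Crem (0.777), Cebpb (0.757) and LOC103690779, and with group means removed LOC100909682, Tbx6, Tob2, LOC102552805 and Jade1.

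The genes whose profile was most like that of Arntl over the 12 libraries were Leo1 (r = 0.979), Klhl24 (0.963), Dmtf1 (0.949), Clock (0.945) and Slc41a3 (0.934), so that its partner stood at rank 4 of 14451 genes. With group means removed they were Auts2, Hnrnpr, Leo1, Heatr6 and Clspn, with Clock at rank 17 and Npas2 at rank 21. Nearest to Dbp were Nr1d2 (r = 0.976), Bhlhe41 (0.947), Ciart (0.913), LOC100912342 and LOC103694910, and with group means removed Ciart (0.974), Nr1d2 (0.969), Bhlhe41 (0.966), LOC108348059 and LOC103694910. The 3 genes nearest to Dbp were clock genes in both cases, and these likenesses are given with no test.

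Of 14 further clock genes, 12 were tested. Hlf, a D-box factor like Dbp and Tef, rose by 1.57 on the log2 scale between SHR and WKY (adjusted p = 0.0419) and by 2.37 between ARB and WKY (adjusted p = 0.00469). Its levels were 5.11, 3.98 and 3.57 CPM in WKY, 21.8, 11.6 and 7.66 in SHR, 21.2, 37.0 and 13.1 in ARB and 6.70, 4.09 and 12.0 in ARNI. Nfil3, which binds the same D-boxes as a repressor, went the other way, at 17.6, 19.3 and 17.6 CPM in WKY, 4.68, 13.1 and 13.1 in SHR, 9.92, 7.50 and 8.80 in ARB and 25.3, 16.7 and 13.3 in ARNI. Nfil3 fell by 1.14 between ARB and WKY (adjusted p = 0.00447) and had a log2 fold change of -0.96 between SHR and WKY (adjusted p = 0.104).

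Ciart, a repressor of the Arntl and Clock pair, had uneven levels within groups, with an SD at the 97.0th percentile. It was at 5.20, 2.96 and 5.87 CPM in WKY, 16.7, 14.6 and 5.69 in SHR, 11.5, 19.7 and 21.2 in ARB and 0.569, 15.4 and 19.1 in ARNI, the lowest value again being that of ARNI replicate 1. Ciart rose by 1.81 between ARB and WKY (adjusted p = 0.00925) and had a log2 fold change of 1.28 between SHR and WKY (adjusted p = 0.0945). Bhlhe41, a repressor that competes at E-boxes, passed by adjusted p alone in both (0.67, adjusted p = 0.0167, and 0.65, adjusted p = 0.0126), as did Cry1, the partner of the PER proteins, between SHR and WKY (-0.84, adjusted p = 0.0310) and Cipc between ARB and WKY (0.29, adjusted p = 0.0478). Cry2, Rora and Bhlhe40 passed in no comparison, with log2 fold changes of -0.01, 0.05 and 0.15 between SHR and WKY and 0.06, 0.17 and 0.11 between ARB and WKY. In all, 1 of 12 was called higher and 0 lower between SHR and WKY, 2 higher and 1 lower between ARB and WKY, and 0 in the other 4 comparisons. Of all genes, 5.54% were called higher and 3.35% lower in the first, and 6.19% and 4.87% in the second. By adjusted p alone, 2 of 12 passed higher and 1 lower between SHR and WKY, beside 20.6% of all genes. Between ARB and WKY 4 passed higher and 1 lower, beside 28.5% of all genes.

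Among 11 genes for enzymes that modify clock proteins, mostly kinases and subunits of ubiquitin ligases, Fbxl21, whose product targets the cryptochromes, was the only gene called in the 6 comparisons, between SHR and WKY (log2 fold change 1.52, adjusted p = 0.0259), where 8.89% of all genes were. Of 16 genes listed as outputs of the clock, 1 was called higher and 2 lower between SHR and WKY, and 1 higher and 3 lower between ARB and WKY. This is 3 and 4 of 16, beside 8.89% and 11.1% of all genes. Por, the electron donor of microsomal cytochromes P450, fell by 1.15 (adjusted p = 0.00218) and Cdkn1a, an inhibitor of the cell cycle, by 2.53 (adjusted p = 0.0235) between SHR and WKY, where Tspan4 rose by 1.30 (adjusted p = 0.0292). Between ARB and WKY, Cdkn1a fell by 3.02 (adjusted p = 0.00692), Noct, a rhythmic phosphatase also known as nocturnin, fell by 1.31 (adjusted p = 0.00839) and Tspan4 rose by 1.66 (adjusted p = 0.00561). Neither list had a gene called in the comparisons of ARNI with the other groups or of ARB with SHR.

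Of 9 genes that respond to glucocorticoids, the hormones that carry time of day from the adrenal gland to other tissues, 2 were called higher and 1 lower both between SHR and WKY and between ARB and WKY, where 8.89% and 11.1% of all genes were called. The metallothioneins Mt1 (log2 fold change 2.63, adjusted p = 0.00662) and Mt2A (2.08, adjusted p = 0.0185) rose and the chaperone gene Fkbp5 fell by 1.01 (adjusted p = 0.0296) between SHR and WKY. Between ARB and WKY, Mt1 rose by 1.85 (adjusted p = 0.0202) and Mt2A by 1.73 (adjusted p = 0.0282), and Zbtb16, a zinc finger factor, fell by 1.72 (adjusted p = 0.0395). The list did not move in 1 direction, with medians of -0.17 and -0.30 on the log2 scale, and its summed level overlapped between all groups, at 606 to 662 CPM in WKY, 468 to 679 in SHR, 341 to 673 in ARB and 491 to 796 in ARNI.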

How the data were processed

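The sequenced mRNA of 12 rats was labelled as left atrial. The authors aligned filtered reads with HISAT2 2.0.4 and Bowtie2 2.2.5, per the submitters' processing notes, which name the build Rnor_6.0, and deposited the expected counts that RSEM estimates for each gene, without normalization. The same table holds the log2 fold change and p-value that the authors deposited for their own comparison, and these were not used. Of the expected counts, 23.6% were not whole. They were rounded, filtered by filterByExpr, scaled by TMM and tested between pairs of groups with edgeR 4.0.16 (R 4.3.3, quasi-likelihood, Benjamini-Hochberg over all genes tested). CPM is the expected count scaled to the library total. DESeq2 1.42.0, RLE scaling, no filter, 1 fit of all 12 libraries, a chamber marker score, a replicate block and leaving out single libraries were tried. Standard errors were derived from the F statistic, and steps were tested on simulated counts. The p-values measure the spread between the 3 libraries of a group, which the design text gives as 3 rats. All members are named, with 8 of the further clock genes, the called genes of the other lists (at most 4 each by adjusted p) and the 5 genes most like Arntl, Dbp and Per1. Cipc was chosen after its values were seen. The members and lists were chosen with earlier results of these data known. Replicates of a group differed by more than sampling noise, so none was merged. Replicate numbers paired the libraries by their deviations between SHR and ARNI alone, and the highest correlation was between unlike numbers. The labels do not say what a number shares.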

Additional observations from a re-analysis of the deposited data

How the results depend on the processing

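Of the values of the 60 pairs of clock gene and comparison under the alternatives, 734 stayed on their side of the threshold, 13 lost it and 3 passed it. The 13 losses fell on the 5 pairs called in the main test, and only these pairs could lose a call. The other pairs were not called, so most of the 734 could have changed only by passing. Clock genes called between SHR and WKY (2) became 3 with DESeq2, which added Arntl, 4 by adjusted p alone, 1 in 1 fit of all 12 libraries, 0 with the chamber score added to that fit and 0 to 3 without single libraries, where WKY replicates 1 and 3 gave 0. Between ARB and WKY (3) they were 3 with DESeq2 and then 8, 3, 0 and 2 to 3 in the same order. DESeq2 called 1 between ARNI and ARB and 4 in the test among all groups, where leaving out single libraries gave 0 to 3. Dbp lost its call between SHR and WKY without any 1 WKY library (adjusted p = 0.0577, 0.0721 and 0.0702) and in the fit of 12 libraries (adjusted p = 0.0755). The Myl2 alternative was chosen after seeing the data. RLE scaling and no filter changed no count of clock genes.

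Over all genes, calls between SHR and WKY (1226) became 2837 by adjusted p alone, 579 in the fit of 12, 95 with the chamber score and 348 to 2205 without single libraries. Between ARB and WKY (1526) they became 3928, 989, 195 and 998 to 2378, and between ARNI and WKY (34) DESeq2 gave 502, the fit of 12 gave 158, the score 88 and single libraries 0 to 1584. DESeq2 called 3 genes between ARB and SHR, 7 between ARNI and SHR and 18 between ARNI and ARB, where edgeR called 0, and the score gave 1 in each of the last 2. The test among all groups (515) gave 2536 by DESeq2, 40 with the score and 35 to 2091 without single libraries. The cause of these shifts was not tested.

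Same-numbered libraries deviated together, with every correlation above 0.1, between SHR and ARNI (0.509, 0.464 and 0.185, each library correlating best with its own number) and in no other pair of groups (5 of 18 pairs above 0.1 in all, range -0.445 to 0.516). The highest correlation of all was between unlike numbers, 0.585 for ARB replicate 3 with ARNI replicate 2, and SHR replicate 2 with ARB replicate 3 had 0.512. These treated and SHR libraries are those with Myl2 above 1000 CPM. The part of the chamber profile in the correlations was not tested. With the replicate block, 0 clock genes and 0 genes in all were called between ARNI and SHR, 2 and 3 clock genes stayed called between SHR or ARB and WKY, and all-gene calls were 681 between SHR and WKY and 0 between ARNI and WKY. Differences that were not called rest on 3 libraries a group, and clock genes were uneven within the SHR and ARNI groups. In the comparisons of ARB with SHR, ARNI with SHR and ARNI with ARB, edgeR called 0% of all genes. The part of the spread of clock genes in the missing calls was not tested.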

Other observations

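Adipose markers were high in ARB replicate 2 and ARNI replicate 3, at a summed 360 and 368 CPM against 2.72 to 23.3 CPM in the other 10 libraries. ARB replicate 2 had the highest Per2, Per3, Nr1d2 and Tef of all libraries. ARNI replicate 3 was highest for no clock gene, but came next after the highest library for Per2 (83.6 CPM) and for Nr1d1 (240 CPM). The part of the adipose markers in these levels was not tested.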
